A study of Mus musculus with 61 samples.

Results

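Amy1, Bpifa2 and Bpifb1 encode proteins of saliva and of the fluids that coat the mouth and airway, and their transcripts were followed on every array of lacrimal and salivary glands from male NOD mice, a strain whose males develop lymphocyte infiltrates in the lacrimal glands and seldom salivary gland disease. The genes were chosen as the probe sets that carry one of these symbols alone in the annotation of the Affymetrix mouse genome array, which gave 4 probe sets for the 3 genes among the 45101 probe sets of the array. Their very high values on scattered arrays of both glands were the reason for the choice, so the scatter of those levels is given as a description, with no test. Comparisons between the study's groups were tested, but they use the same levels, and a call that rests on the high arrays is not independent evidence. Mice were given weekly intraperitoneal injections of 100 μg of LTBR-Ig, a fusion of the lymphotoxin-beta receptor with an immunoglobulin Fc that acts as a systemic decoy for its ligands, or of MOPC-21, a control mouse IgG1 antibody, from week 8 of age, and were sampled at week 12 and week 16. Untreated mice were sampled at weeks 8, 12, 14 and 16. Lacrimal groups had 4 arrays each, except untreated week 12 with 3, and salivary groups had 4 arrays each, except LTBR-Ig week 12 with 2. Per the methods, a lacrimal sample joined both glands of a mouse, while a salivary sample joined the submandibular, salivary and parotid glands. The titles of the salivary samples read Sub and do not name the parotid gland. How much parotid tissue each sample held is not stated.

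Amylase, the product of Amy1, cuts starch and is a main protein of parotid saliva, made by the serous acinar cells of that gland. Bpifa2, long known as parotid secretory protein, and Bpifb1 belong to the BPI fold family, whose members resemble a neutrophil protein that binds bacterial lipopolysaccharide. Bpifa2 is made in the parotid gland and in young submandibular and sublingual glands of mice, and Bpifb1 is known as a secreted product of the upper airway and of mucosal glands. Lacrimal glands make another set of abundant products, among them secretoglobins, lipocalins and odorant-binding proteins. Levels below are log2 expression values after the authors' GCRMA normalization, where a difference of 1 is a fold of 2. A value of 4 was taken as the floor of detection, and levels of different probe sets are not set against each other.

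All 3 genes were found in the RefSeq tables of build GRCm38.p6. Bpifa2 lies on chromosome 2 at 154008276 to 154016073 and Bpifb1 on the same chromosome at 154190818 to 154220343, so that the gap between them is 174.745 kb, and Amy1 lies on chromosome 3 at 113555952 to 113577750. The 120 bases before each annotated start are shown as a description, and their part in the levels on the arrays was not tested. Capitals mark TATAA on either strand, which reads TTATA on the opposite strand and shares its middle letters with TATAA in the Amy1 window.
Amy1, minus strand, chr3:113574763-113574882: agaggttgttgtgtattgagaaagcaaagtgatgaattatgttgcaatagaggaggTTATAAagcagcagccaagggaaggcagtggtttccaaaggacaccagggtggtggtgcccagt
Amy1, minus strand, chr3:113577751-113577870: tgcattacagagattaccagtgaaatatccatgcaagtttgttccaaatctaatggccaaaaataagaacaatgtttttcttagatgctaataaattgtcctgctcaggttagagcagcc
Bpifa2, plus strand, chr2:154008156-154008275: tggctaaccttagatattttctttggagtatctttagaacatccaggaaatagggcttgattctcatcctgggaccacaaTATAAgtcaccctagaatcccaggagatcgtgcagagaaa
Bpifb1, plus strand, chr2:154190698-154190817: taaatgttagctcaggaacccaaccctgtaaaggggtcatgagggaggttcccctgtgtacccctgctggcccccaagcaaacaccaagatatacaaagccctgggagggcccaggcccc
Bpifb1, plus strand, chr2:154200260-154200379: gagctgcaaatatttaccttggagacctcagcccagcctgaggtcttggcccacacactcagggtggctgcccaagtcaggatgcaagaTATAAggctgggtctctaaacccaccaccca

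Amy1 and Bpifb1 each have 2 annotated starts, and in both genes 1 of the 2 windows holds TATAA on the sense strand. The motif began 40 bases before the Bpifa2 start, 31 bases before a Bpifb1 start and 63 bases before an Amy1 start. Of 32851 promoters in the table, 11.8% held TATAA on either strand within 120 bases before the start, and 4.23% held it on the sense strand within the last 40 bases. A match describes the letters only.

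The arrays themselves were alike in overall level, with medians between 3.19 and 3.33 and between 37.3% and 41.4% of probe sets above 4, and no pair was identical. Some abundant transcripts fitted the labels. The lacrimal products Scgb1b2, Lcn11 and Obp1a were at 14.89 or more on all 31 lacrimal arrays. The submandibular kallikrein Klk1 was at 15.37 or more on all 30 salivary arrays. Other genes listed as lacrimal products did not mark the gland. Mup5 was above 8 on all 30 salivary but only 9 lacrimal arrays, and Wfdc18 was at 12.91 or more on every array. Lcn3, Lcn4 and Spink5 stayed below the floor throughout. For Scgb1b2, Lcn11 and Obp1a an exception stood out among the salivary arrays. Untreated week 8 replicate 1 held Scgb1b2 at 15.38, Lcn11 at 13.34 and Obp1a at 13.34, while Scgb1b2 lay at 9.45, 7.55 and 8.41 on the other arrays of that group. Amy1 on the same array was 5.56, beside 4.58, 5.48 and 5.45 on the other 3, so it did not stand apart there. In the opposite direction, Klk1 ranged over 2.93 to 12.35 on lacrimal arrays.

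In lacrimal glands, Amy1 was near background on most arrays and above 12 on a few. At week 8 the untreated arrays lay at 3.34, 3.51, 3.24 and 3.74. At week 12, Amy1 measured 13.82, 8.84, 5.66 and 3.53 with LTBR-Ig, 13.87, 7.83, 3.74 and 3.90 with MOPC-21, and 12.49, 6.31 and 3.84 in untreated mice. Each week 12 group thus held an array above 12 and an array below 4, and the 3 groups overlapped over nearly their whole range. At week 14 the untreated arrays were all low again, at 3.06, 3.49, 3.11 and 2.84. At week 16 Amy1 stood at 3.75, 3.15, 15.08 and 12.22 with LTBR-Ig, at 3.84, 3.83, 3.77 and 3.38 with MOPC-21, and at 14.39, 15.31, 3.24 and 3.19 in untreated mice. LTBR-Ig and untreated arrays were split at this age, with 2 high and 2 low in each group, and all MOPC-21 arrays were low.

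In salivary glands, Amy1 had another pattern, with an even level on most arrays and a few arrays far above it. The lowest values were those of untreated week 8, 4.58 to 5.56. At week 12 Amy1 was 14.88 and 11.77 with LTBR-Ig, 7.10, 7.36, 10.95 and 8.52 with MOPC-21, and 7.80, 7.23, 7.24 and 10.82 in untreated mice. Untreated week 14 arrays gave 7.39, 7.57, 7.51 and 7.51. At week 16 the values were 7.47, 7.79, 7.61 and 7.47 with LTBR-Ig, 7.75, 7.71, 7.55 and 7.34 with MOPC-21, and 7.36, 7.50, 7.75 and 14.19 in untreated mice. Of the 12 salivary arrays of week 16, then, 11 lay within 7.34 to 7.79 and 1 untreated array lay far above. All 26 salivary arrays of weeks 12 to 16 were at 7.10 or more.

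**Figure D1:**
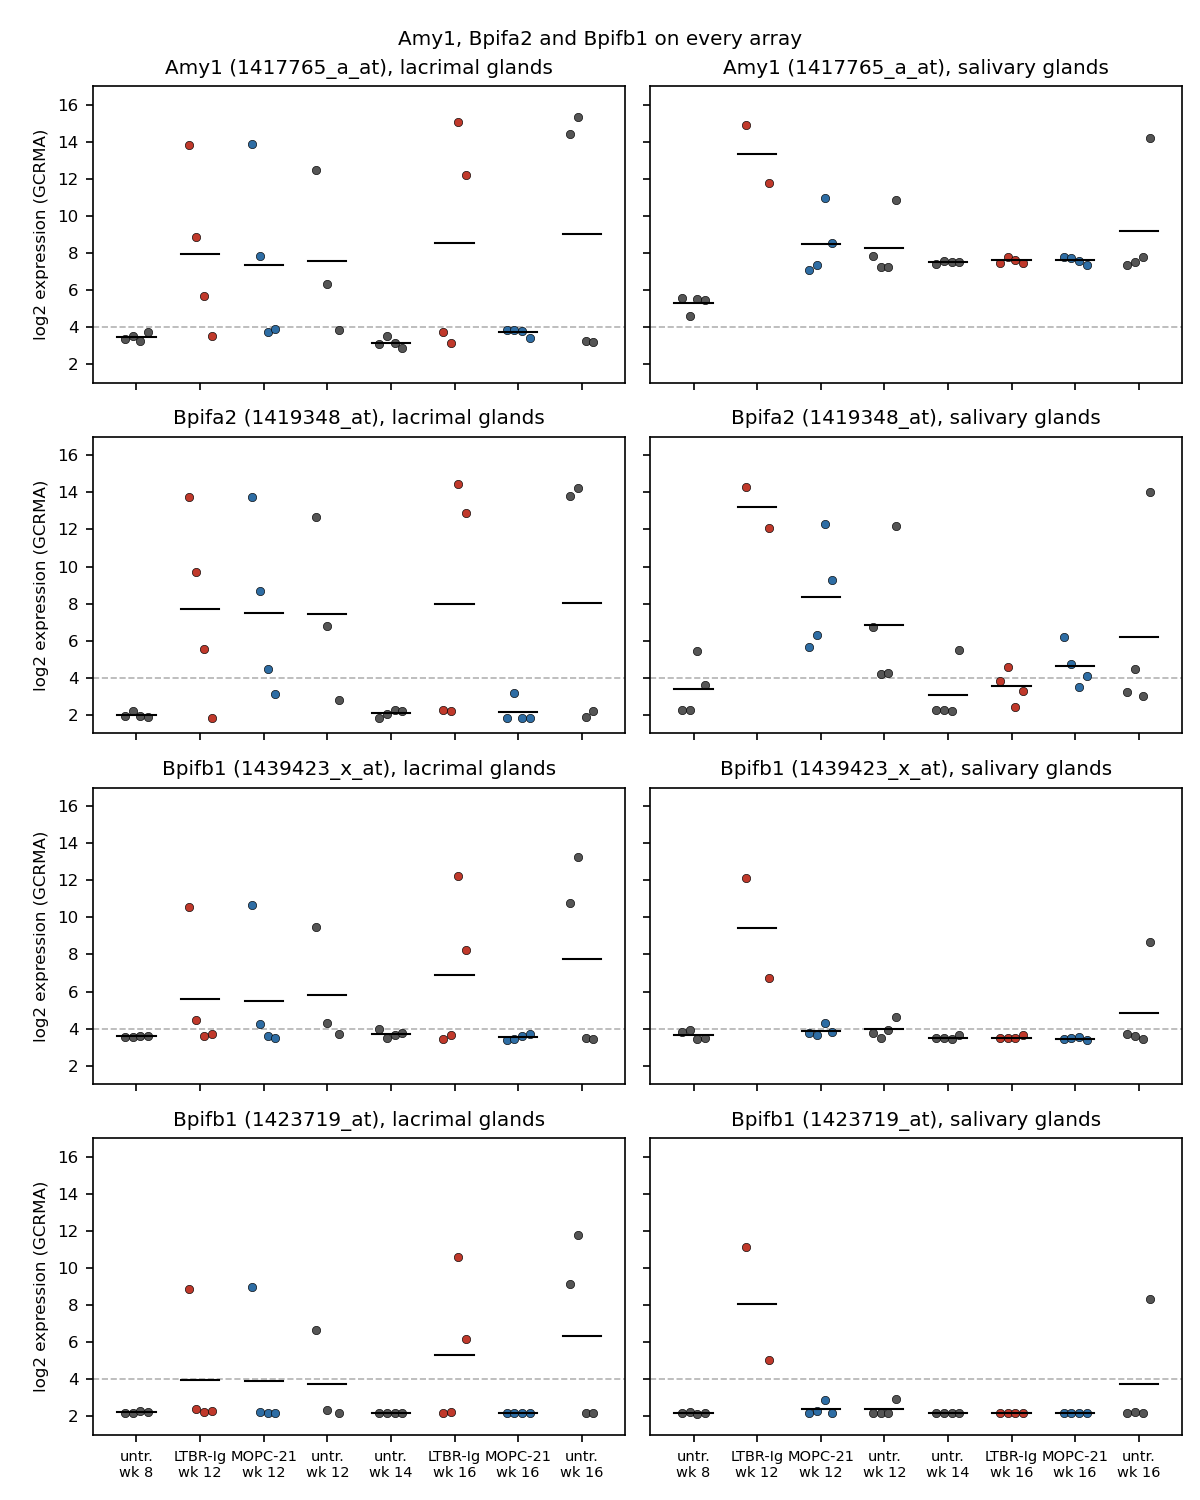
Log2 expression of the 4 probe sets on every array, with lacrimal arrays at left and salivary arrays at right, grouped by treatment and week; points are arrays, black bars group means and the dashed line the floor of 4. High points occur with LTBR-Ig, with MOPC-21 and in untreated mice, and the salivary Amy1 points of weeks 12 to 16 all lie at 7.10 or more, above the 4 points of week 8.

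Bpifa2, the parotid secretory protein, was high on the same lacrimal arrays. At week 12 it measured 13.73, 9.70, 5.54 and 1.84 with LTBR-Ig, 13.77, 8.70, 4.45 and 3.11 with MOPC-21, and 12.69, 6.77 and 2.80 in untreated mice. At week 16 the values were 2.28, 2.22, 14.46 and 12.92 with LTBR-Ig, 1.81, 3.17, 1.81 and 1.82 with MOPC-21, and 13.83, 14.25, 1.91 and 2.22 in untreated mice. Untreated arrays of weeks 8 and 14 lay between 1.82 and 2.24. The replicates that were high for Amy1 were again the high ones, and the groups overlapped as they did for Amy1.

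In salivary glands Bpifa2 had no even level under the high arrays. At week 12 it was 14.29 and 12.10 with LTBR-Ig, 5.65, 6.30, 12.31 and 9.26 with MOPC-21, and 6.73, 4.18, 4.26 and 12.17 in untreated mice. At week 16 it was 3.82, 4.60, 2.40 and 3.31 with LTBR-Ig, 6.22, 4.72, 3.51 and 4.12 with MOPC-21, and 3.22, 4.49, 3.04 and 14.02 in untreated mice. The 4 untreated arrays of week 14 gave 2.23, 2.29, 2.23 and 5.48, and those of week 8 gave 2.24, 2.23, 5.43 and 3.59. Bpifa2 was thus above the floor on 18 of 30 salivary arrays, whereas Amy1 was above it on all 30.

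Bpifb1 came above the floor on fewer arrays than the other 2 genes. Its probe set of higher mean, here called the x_at probe set after its suffix, reached 10.57 on 1 LTBR-Ig array, 10.69 on 1 MOPC-21 array and 9.49 on 1 untreated array of the week 12 lacrimal groups, with the remaining 8 arrays between 3.50 and 4.49. At week 16 it stood at 12.21 and 8.27 on LTBR-Ig replicates 3 and 4 and at 10.75 and 13.26 on untreated replicates 1 and 2, and no MOPC-21 array was above the floor. The salivary arrays above 6 were both LTBR-Ig arrays of week 12, at 12.15 and 6.71, and untreated week 16 replicate 4, at 8.65. The other Bpifb1 probe set was above 4 on 7 of these arrays in lacrimal and 3 in salivary glands, with 11.77 on untreated week 16 replicate 2 in lacrimal glands and 11.12 on LTBR-Ig week 12 replicate 3 in salivary glands. Over the 31 lacrimal arrays the 2 probe sets of Bpifb1 correlated at r = 0.99. The suffix marks a probe set with probes that may also bind other transcripts, which was not tested.

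With a value above 8 taken as high, 8 of 31 lacrimal arrays were high for Amy1, 9 for Bpifa2 and 7 for Bpifb1. In salivary glands 6 of 30 arrays were high for Amy1, 6 for Bpifa2 and 2 for Bpifb1. Nearest the threshold for Amy1 were the lacrimal arrays at 8.84 and 7.83 and the salivary arrays at 8.52 and 7.80. No array of either gland was high for Bpifb1 without being high for Amy1. Within groups, the spread of these genes was among the widest of all: the pooled within-group SD of Amy1 was 4.23 in lacrimal glands, rank 4 of 20077 probe sets tested, and 1.61 in salivary glands, rank 10 of 19617, against medians of 0.241 and 0.225. Bpifa2 had rank 2 in lacrimal and rank 4 in salivary glands. Such ranks follow from choosing genes with very high values on scattered arrays and are no separate finding.

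Along Amy1, the level at which the other genes appeared depended on the probe set, the threshold and the gland. In lacrimal glands Bpifa2 was above 6 on every array where Amy1 was 6.31 or more and on none where it was 5.66 or less. At the lower threshold of 4, Bpifa2 had no clear break, being above it with Amy1 as low as 3.74 and not above it with Amy1 as high as 3.90. The x_at probe set of Bpifb1 was above 4 on every lacrimal array with Amy1 at 6.31 or more, and above 6 only from 12.22. At a common threshold, then, the breaks of Bpifa2 and Bpifb1 were not the same. The other probe set of Bpifb1 was above 4 on every lacrimal array with Amy1 at 12.22 or more and on none with Amy1 at 8.84 or less. In salivary glands that probe set was above 4 where Amy1 was 11.77 or more and not where it was 10.95 or less. Salivary Bpifa2 had no such break, since it was above 6 on arrays with Amy1 as low as 7.36 and not above 6 on arrays with Amy1 as high as 7.79. Over the 31 lacrimal arrays, Amy1 correlated with Bpifa2 at Pearson r = 0.99 and Spearman rho = 0.76 and with Bpifb1 (the x_at probe set) at r = 0.96 and rho = 0.57. Over the 30 salivary arrays the values were r = 0.88 and rho = 0.57 for Bpifa2 and r = 0.85 and rho = 0.28 for Bpifb1. These correlations are descriptions: the arrays share a normalization, the low arrays carry values near background, and the few high arrays set r.

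**Figure D2:**
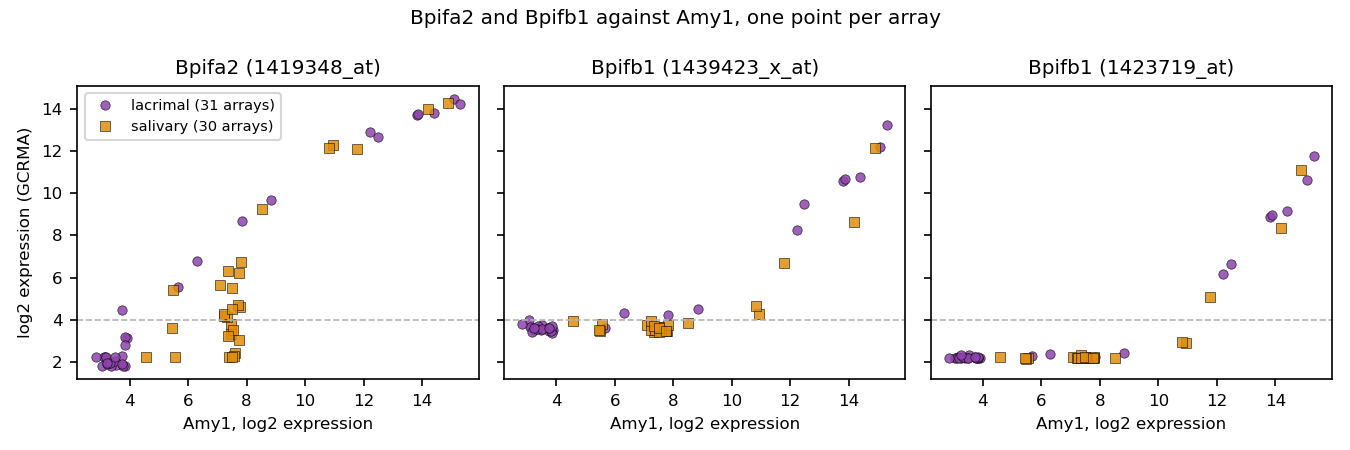
Log2 expression of Bpifa2 and of the 2 Bpifb1 probe sets (vertical axes) against that of Amy1 (horizontal axis), 1 point per array, with 31 lacrimal arrays as circles and 30 salivary arrays as squares; the dashed line is the floor of 4. The lacrimal points of Bpifa2 climb along Amy1, and many salivary arrays stand in a column near an Amy1 value of 7.5, over which Bpifa2 varies.

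None of the 3 genes was called in any lacrimal comparison, where a call needs at least a fold of 2 together with an adjusted p under 0.05 in a limma fit over all probe sets of the gland. When LTBR-Ig was set against MOPC-21 at week 16, 5.88% of probe sets were called. Amy1 averaged 8.55 ± 6.01 with LTBR-Ig and 3.71 ± 0.22 with MOPC-21 (SD, n = 4 each), a difference of 4.85 with SE 2.78 and a limma adjusted p of 0.20, and was not called. Bpifa2 differed by 5.81 (SE 2.98, limma adjusted p = 0.15) and Bpifb1 by 3.36 (SE 2.02, limma adjusted p = 0.22) in the same comparison. Against untreated mice at week 16, where 3.95% were called, the Amy1 difference of LTBR-Ig was -0.48 (SE 2.78). At week 12, Amy1 with LTBR-Ig differed by 0.63 from MOPC-21 and by 0.42 from untreated mice, where 0.0498% and 0.00498% of probe sets were called. No gene of the 3 reached an unadjusted p under 0.05 in these 4 comparisons.

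Between MOPC-21 and untreated mice no probe set at all was called in lacrimal glands (0.00% at week 16 and at week 12). Bpifb1 was 4.20 lower with MOPC-21 at week 16 with an unadjusted limma p of 0.048, which was lost on adjustment, and the other 2 genes were not under 0.05 unadjusted. Week 16 against week 8 in untreated lacrimal glands gave differences of 5.58 for Amy1 (SE 2.78, limma adjusted p = 0.092), 6.06 for Bpifa2 (SE 2.98, limma adjusted p = 0.089) and 4.16 for Bpifb1 (SE 2.02, limma adjusted p = 0.084), in a comparison that called 16.5% of probe sets. All 3 were called without untreated week 16 replicate 3 and also without replicate 4, the low arrays of that group, when Amy1 differed by 7.51 and 7.53 (limma adjusted p = 0.033 and 0.035). These calls rest on the high arrays for which the genes were chosen and support nothing by themselves. Weeks 12 and 14 against week 8 called 9.67% and 13.6% of probe sets and none of the 3 genes, with no unadjusted p under 0.05.

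In salivary glands Amy1 was lowest at week 8. In untreated mice it averaged 9.20 ± 3.33 at week 16 and 5.27 ± 0.46 at week 8 (SD, n = 4 each), a difference of 3.93 (SE 1.05, limma adjusted p = 0.0046), and was called in a comparison that called 7.14% of probe sets. Without untreated week 16 replicate 4, the array at 14.19, the difference was 2.27 (SE 0.75, limma adjusted p = 0.023) and the call held. The comparisons of weeks 12 and 14 with week 8 were added after seeing the data. At week 12 Amy1 was 3.004 above week 8 (SE 1.05, limma adjusted p = 0.026; 7.12% called), and without replicate 4 of untreated week 12 the difference was 2.15 (limma adjusted p = 0.13). It was also not called without untreated week 8 replicate 2, the lowest array of week 8, at a difference of 2.77 (limma adjusted p = 0.066). At week 14 Amy1 was 2.23 above week 8 and not called (SE 1.05, limma adjusted p = 0.10, unadjusted p = 0.043; 7.26% called). The SE comes from all salivary groups, including those with high arrays. With only these 2 groups in the fit the difference was called (SE 0.20, limma adjusted p = 1.5e-05).

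All arrays of untreated weeks 12, 14 and 16 were above all arrays of week 8 for Amy1. That held of 13.2% of probe sets tested at week 12, 16.5% at week 14 and 15.2% at week 16. Bpifa2 and Bpifb1 were not called at any of these ages, and Bpifa2 at week 14 was within 0.32 of week 8 on average. Lacrimal transcripts also differed between these ages. On untreated salivary arrays Scgb1b2 was at 7.55 to 15.38 at week 8, 2.68 to 2.70 at week 12, 7.07 to 9.46 at week 14 and 2.68 to 2.85 at week 16. Obp1a was at 6.17 to 13.34 at week 8, 2.81 to 3.09 at week 12, 2.68 to 3.39 at week 14 and 2.70 to 3.10 at week 16. Both were thus lower at weeks 12 and 16, where Amy1 was called, than at week 8. At week 14, where all Amy1 values also exceeded those of week 8, Obp1a was lower but Scgb1b2 overlapped its week 8 range. Without week 8 replicate 1, the array richest in both transcripts, Amy1 at week 16 was 4.03 above week 8 (limma adjusted p = 0.0087). The part of the lacrimal transcripts on the other week 8 arrays was not tested. In these whole glands, fewer cells of a kind and less transcript per cell cannot be told apart.

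LTBR-Ig had only 2 salivary arrays at week 12, and both were high. Against MOPC-21 at that week 0.0306% of probe sets were called, and Bpifb1 (the x_at probe set) was among them at a difference of 5.56 (SE 1.01, limma adjusted p = 0.030). The other Bpifb1 probe set differed by 5.69 (SE 1.17, limma adjusted p = 0.053) and was not called. In salivary glands both probe sets passed the filter on low values through this LTBR-Ig group alone. Both arrays belong to those for whose high levels the genes were chosen, so the call is a description and not independent evidence. Amy1 differed by 4.85 (SE 1.28, limma adjusted p = 0.11) and Bpifa2 by 4.82 (SE 2.25, limma adjusted p = 0.38). The Bpifb1 call was lost with the replicate number as a block (difference 5.33, limma adjusted p = 0.077) and with only both groups in the fit (limma adjusted p = 0.999), and without either LTBR-Ig array the probe set no longer passed the filter on low values. Against untreated mice at week 12 no probe set was called (0.00%), with all 3 genes at an unadjusted limma p under 0.05 and Bpifb1 at an adjusted p of 0.080.

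At week 16 none of the 3 genes was called between LTBR-Ig and MOPC-21 in salivary glands. Amy1 averaged 7.59 ± 0.15 with LTBR-Ig and 7.59 ± 0.19 with MOPC-21 (SD, n = 4 each), a difference of 0.0014 with an SE of 1.05, in a limma comparison that called 0.0357% of probe sets. Against untreated mice, where 0.0663% were called, Amy1 with LTBR-Ig was 1.61 lower (SE 1.05) and was not called. MOPC-21 against untreated mice called 0.00% at week 16 and at week 12. No unadjusted p of the 3 genes was under 0.05 in these 4 comparisons. The treatment difference at week 16 was 4.84 larger in lacrimal than in salivary glands for Amy1 (SE 3.07), which was not called in a limma test that called 2.93% of probe sets, and no unadjusted p was under 0.05.

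Lacrimal and salivary glands did not differ in a called way for any of the 3 genes in limma, with 18.8% of probe sets called at week 8 and 23.4% at week 16 and no unadjusted p of the 3 under 0.05. At week 8 Amy1 averaged 3.46 ± 0.22 in lacrimal and 5.27 ± 0.46 in salivary glands (SD, n = 4 each), with all lacrimal arrays below all salivary ones, as for 25.9% of probe sets. The difference of -1.81 had an SE of 2.17 in the fit of all 61 arrays and of 0.23 with only these 2 groups, where it was called. At week 16 untreated lacrimal and salivary glands averaged 9.03 and 9.20 for Amy1, a difference of -0.17 (SE 2.17). The 4 lacrimal arrays were 2 high and 2 low, whereas 3 of the 4 salivary arrays were near 7.5. Of 29 pairs of lacrimal and salivary arrays that share treatment, week and replicate number, 6 were high for Amy1 in lacrimal glands only, 6 in salivary glands only, 17 in neither and 0 in both. Of the 8 lacrimal arrays high for Amy1, 2 (LTBR-Ig week 12) had no salivary partner of their number and are not among the pairs. The labels do not say whether a number marks the same mouse. Whether these counts differ from chance was not tested.

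Several of the genes most like Amy1 encode secreted proteins. Likeness was the Pearson r with Amy1 over the arrays of a gland, and it was taken over 10120 other genes in lacrimal and 9893 in salivary glands. In lacrimal glands the 10 highest were Chia1, an acidic chitinase, Smr3a, a proline-rich secreted protein, and Cst10, a cystatin, at r = 0.997, 0.996 and 0.996, then Bpifa2 (0.99), Bpifb1 (0.96), the proline-rich salivary protein Prpmp5 (0.88), the lysosomal hydrolase Ggh (0.78), the demilune cell and parotid proteins Dcpp1 (0.76) and Dcpp3 (0.70), and the pantetheinase Vnn1 (0.68). In salivary glands they were Chia1 (0.93), Smr3a (0.92), Bpifa2 (0.88), Bpifb1 (0.85), Cst10 (0.74), the nuclease Dnase1 (0.73), Elp3 (0.69), the interferon-induced Ifit3 (0.67), the stress sensor Atf6 (0.66) and Ggh (0.66). The 2 lists shared 6 genes. A value of r of 0.6 or more was reached by 13 genes (0.128%) in lacrimal and 26 (0.263%) in salivary glands.

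By Pearson r, Chia1 followed Amy1 most closely in both glands, with Smr3a next. By Spearman's rho Smr3a was the closer of the pair, at 0.80 against 0.77 in lacrimal and 0.51 against 0.49 in salivary glands. In the week 16 lacrimal groups Chia1 was 2.29, 2.33, 14.83 and 12.18 with LTBR-Ig, 2.26, 2.78, 2.23 and 2.24 with MOPC-21, and 13.99, 15.11, 2.25 and 2.39 in untreated mice. Smr3a on the same arrays was 2.70, 2.53, 14.85 and 12.04 with LTBR-Ig, 2.44, 2.69, 2.55 and 2.46 with MOPC-21, and 14.20, 15.07, 2.48 and 2.44 in untreated mice. The same 4 arrays were high for both genes as for Amy1, and all others were near background. Chia1 and Smr3a were above 8 on 8 lacrimal arrays each, all of them high for Amy1, and on 5 salivary arrays each, likewise.

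The even level of Amy1 in salivary glands was not shared by these 2 genes. On the 4 untreated salivary arrays of week 14, with Amy1 at 7.39 to 7.57, Chia1 lay at 2.24 to 2.25 and Smr3a at 2.46 to 2.70. The 4 LTBR-Ig arrays of week 16, with Amy1 at 7.47 to 7.79, gave 2.25 to 2.27 for Chia1 and 2.50 to 2.71 for Smr3a. Cst10 ran against Amy1 between ages: it lay at 4.64 to 5.42 at week 14 and at 7.57 to 8.44 at week 8 in untreated salivary glands. On the high arrays it came with Amy1, as on LTBR-Ig week 12 replicate 3, where Cst10 was 13.83 and Amy1 14.88.

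**Figure D3:**
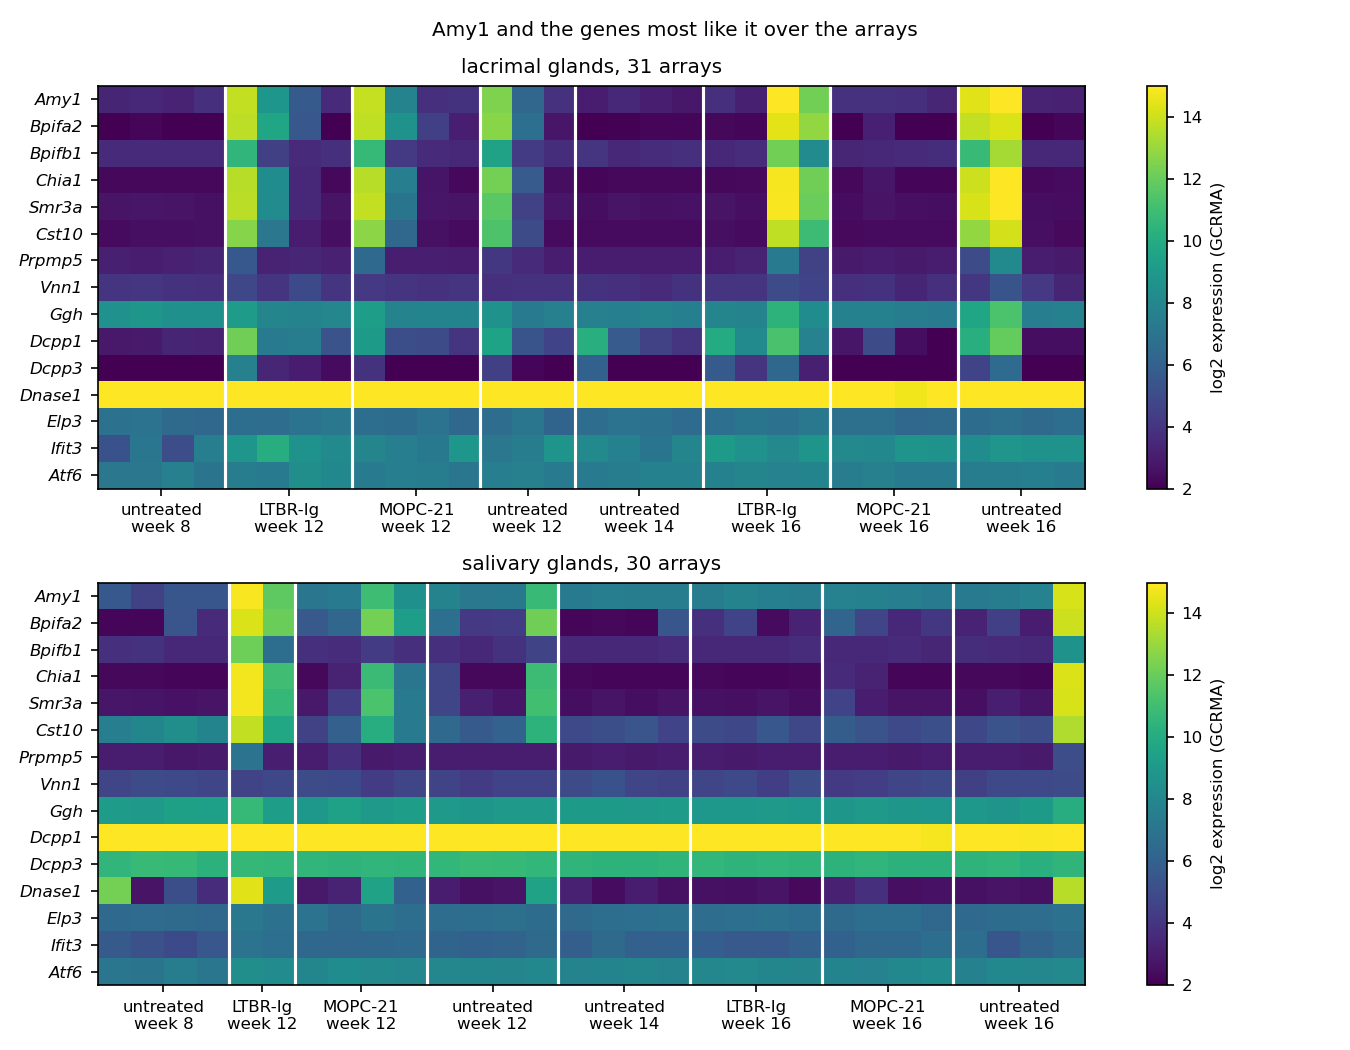
Log2 expression of Amy1 and of the genes most like it, 1 column per array in order of week and treatment, for lacrimal (top) and salivary glands (bottom); colour is the log2 value, with values under 2 or over 15 drawn in the end colours. Amy1, Bpifa2, Chia1, Smr3a and Cst10 light up in the same lacrimal columns, Dcpp1 lights up in others as well, and Dnase1 is bright in all lacrimal columns.

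Dnase1 differed between the glands. It lay at 14.73 to 15.74 on all lacrimal arrays, with r = 0.20 to Amy1, and in salivary glands it was above 8 on 6 arrays, of which 5 were high for Amy1. The sixth was untreated week 8 replicate 1, at 12.30, the array that carried the lacrimal products. Of the other named parotid products, Car6, Lpo and Pip were above 8 on every array of both glands. Prpmp5 was above 8 on 1 lacrimal array only, untreated week 16 replicate 2, at 8.21, where Amy1 was highest. Prp2 was also above 8 on 1 lacrimal array, at 8.87, and that array was high for Amy1.

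Products of the submandibular and sublingual glands also appeared on lacrimal arrays. Klk1 was above 8 on 12 lacrimal arrays, among them all 8 that were high for Amy1, and its r with Amy1 was 0.66. The other 4 arrays had Klk1 without high Amy1. Klk1 had the highest r of the 15 tested submandibular duct genes and was the only 1 at 0.6 or more. Some of the others were above 8 on fewer lacrimal arrays, as Klk1b16 on 6, of which 2 were high for Amy1. Others were above 8 on more, as Prol1 on 23, of which 8 were high for Amy1. Klk1 on untreated lacrimal arrays of week 14 was 10.94, 7.97, 6.01 and 6.01, and Dcpp1 was 10.21, 5.75, 4.56 and 4.01, with Amy1 at 3.49 or less on all 4. Among LTBR-Ig arrays of week 16, replicate 1 held Klk1 at 11.39 and Amy1 at 3.75, and replicate 4 held Klk1 at 8.10 and Amy1 at 12.22. At week 8, Klk1 was between 2.93 and 3.06 on all 4 lacrimal arrays. The part of these transcripts in the Amy1 pattern was not tested.

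Over lists of genes, likeness to Amy1 was mixed among parotid products. Without Bpifa2 and Bpifb1, which were chosen for the same high arrays, the 7 other tested genes had a median r of 0.35 in lacrimal and -0.03 in salivary glands. The 7 were not the same: Prpmp5 was tested in lacrimal glands only, and Prp2, with r = -0.30, in salivary glands only. Prp2 did not pass the filter in lacrimal glands, where its r was 0.43. In either gland 3 of the 7 had r of 0.6 or more: Smr3a, Cst10 and Prpmp5 in lacrimal and Smr3a, Cst10 and Dnase1 in salivary glands. Sublingual and demilune genes had a median of 0.48 in lacrimal and -0.08 in salivary glands, submandibular duct genes 0.28 and 0.41, lacrimal products 0.11 and -0.40, and genes of the acinar secretory machinery 0.18 and 0.03. All genes tested had a median of -0.06 in either gland. Lymphocyte genes had a median of 0.04 over 7 genes in lacrimal glands, and ubiquitous genes had -0.06.

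**Figure D4:**
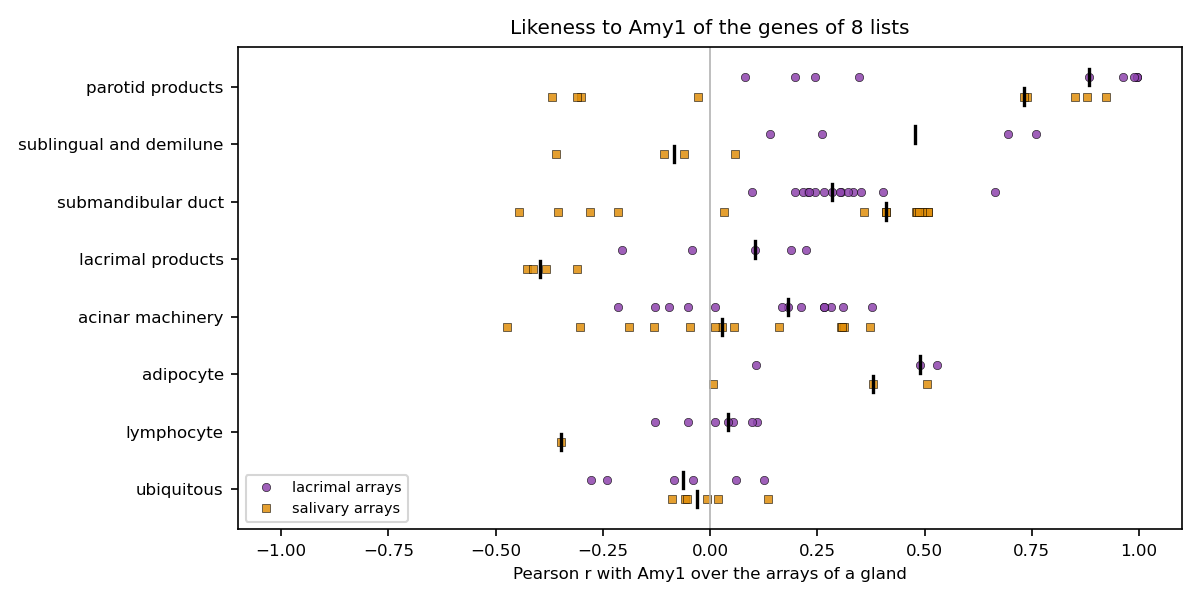
Pearson r with Amy1 (horizontal axis) of each tested gene of 8 lists, over 31 lacrimal arrays (circles) and 30 salivary arrays (squares); black bars are list medians. The parotid list, drawn here with Bpifa2 and Bpifb1, splits into a high and a low set of genes in both glands, and the other lists lie mostly under 0.6.

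Markers of fat, which surrounds these glands, differed in how far they moved with Amy1. The median r of 3 tested adipocyte genes was 0.49 in lacrimal and 0.38 in salivary glands. In lacrimal glands r was 0.53 for Adipoq, 0.49 for Fabp4 and 0.11 for Thrsp. In salivary glands it was 0.51, 0.01 and 0.38 for the same genes. The adipocyte hormone Adipoq was 6.50 on untreated week 16 lacrimal replicate 2 and 7.10 on untreated week 16 salivary replicate 4, both with high Amy1, but 2.60 on LTBR-Ig week 16 lacrimal replicate 4, where Amy1 was 12.22. The mean of the 6 measured adipocyte genes ranged over 3.76 to 4.35 with LTBR-Ig, 3.60 to 4.36 with MOPC-21 and 4.06 to 4.69 in untreated mice in week 16 lacrimal groups. The part of fat in the result was not tested. Only 1 of 8 muscle genes was above the floor on any lacrimal array and 0 of 8 on any salivary array.

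A probe set shared by 5 Amy2a copies, which encode pancreatic amylase, stayed between 2.98 and 4.20 in lacrimal and between 2.98 and 4.08 in salivary glands. The arrays above the floor were LTBR-Ig week 16 lacrimal replicate 3, at 4.20, untreated week 16 lacrimal replicate 2, at 4.06, and LTBR-Ig week 12 salivary replicate 3, at 4.08, which were also the arrays where Amy1 was highest, at 15.08, 15.31 and 14.88. A probe set shared by Amy1 and its neighbour Rnpc3 stayed between 5.24 and 6.24 in lacrimal glands and between 5.26 and 6.44 in salivary glands. Neither counts among the 4, since each carries several symbols. The amylase copies are close in sequence, and how far the Amy1 probes bind the others was not tested. Of 14 measured genes of the exocrine pancreas 2 were above the floor on any array in each gland. They were Gp2 (up to 8.18) and Prss2 (up to 4.38) in lacrimal glands, and Gp2 (up to 6.79) and Zg16 (up to 4.11) in salivary glands. Gp2 had r = -0.03 with Amy1 in lacrimal and -0.09 in salivary glands. The mean of the 14 stayed between 2.60 and 2.96 on lacrimal arrays.

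Of the BPI fold family, 4 of 12 measured genes were above the floor on any array in either gland: Bpifa2, Bpifb1, Lbp and Pltp. Pltp, a phospholipid transfer protein of plasma, was at 8.27 or more on all arrays, with r = 0.01 in lacrimal and -0.36 in salivary glands. Lbp, the lipopolysaccharide-binding protein, did not exceed 4.64.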

How the data were processed

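The deposited values are log2 expression values of 61 Affymetrix mouse genome arrays, which the authors corrected for background and normalized over the whole set by GCRMA (version not given in the sources used here), and they were used without further normalization. Of 45101 probe sets, 34958 carried 1 gene symbol, 932 held more than that and 9211 had no entry in the annotation. Each gland was fitted in R 4.3.3 with limma 3.58.1 (a mean per group, intensity trend), and both glands together for comparisons between them. A probe set entered the test where some group had 2 or more arrays over 4, which left 20077 for lacrimal and 19617 for salivary arrays, and p-values were adjusted by Benjamini-Hochberg over all of them. For genes with several single-symbol probe sets, that of highest mean stood for the gene. The pipeline was tested on simulated data.

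The genes, lists and tests were chosen with earlier results of these data known. Named were the 3 genes, the 10 genes most like Amy1 in each gland, up to 4 genes of each list by their r, and family members above the floor. Car6, Lpo and Pip of the parotid list were named after their values were seen. Replicate numbers in the titles do not say what they mark. Deviations of same-numbered arrays correlated between -0.51 and 0.75, and in 1 of 20 comparisons, MOPC-21 against untreated lacrimal glands at week 12, all 3 pairs were over 0.1. Alternatives tried were filters, quantile normalization, array weights, fits of only the groups compared, a replicate block and leaving out each array. The methods describe lacrimal replicates as separate mice, and for salivary arrays p-values measure the spread between samples, whose origin is not stated. The number of arrays limits the precision. No array was left out.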

Additional observations from a re-analysis of the deposited data

Results flagged for a closer look

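Of 56 sets of 4 arrays (a probe set in a group), 17 held an array whose gap to the nearest of the others relative to the range of the set was over Dixon's critical value for 4 samples. Chance flags about 1 in 20 such sets, but the genes were chosen for very high values on scattered arrays. The count flagged was fixed in part by that choice and is a description only. The sets are also not independent, since the 3 genes move together.

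For Amy1 the arrays were untreated week 16 replicate 4 (14.19), untreated week 12 replicate 4 (10.82) and untreated week 8 replicate 2 (4.58) in salivary glands, and MOPC-21 week 16 replicate 4 (3.38) in lacrimal glands. For Bpifa2 they were untreated week 16 replicate 4 (14.02) and untreated week 14 replicate 4 (5.48) in salivary glands and MOPC-21 week 16 replicate 2 (3.17) in lacrimal glands. The last of these was below the floor.

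For Bpifb1, the probe set without the x suffix stood apart on LTBR-Ig week 12 replicate 1 (8.88) and MOPC-21 week 12 replicate 1 (8.97) in lacrimal glands, and on untreated week 16 replicate 4 (8.34) in salivary glands. Below the floor it stood apart on salivary MOPC-21 week 12 replicate 3 (2.88), untreated week 12 replicate 4 (2.92) and untreated week 14 replicate 3 (2.18). The x_at probe set of Bpifb1 stood apart on LTBR-Ig week 12 replicate 1 (10.57) and MOPC-21 week 12 replicate 1 (10.69) in lacrimal glands, and on LTBR-Ig week 16 replicate 4 (3.64) and untreated week 16 replicate 4 (8.65) in salivary glands. Salivary untreated week 16 replicate 4 was set apart by all 4 probe sets. Amy1 on that array is in the difference of 3.93 between weeks 16 and 8, which was 2.27 without it.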

How the results depend on the processing

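For 29 results, 332 alternatives were run, of which 308 kept the count within 1.5 times and 24 did not. For untreated week 16 against week 8 in lacrimal glands 3 genes were called with array weights, and leaving out 1 array gave 0 to 3. For LTBR-Ig against MOPC-21 in salivary glands at week 12 the count was 0 with the replicate block, with array weights and with only the groups compared, and 0 to 1 without 1 array. Without a filter, 1 gene was called for LTBR-Ig against untreated salivary glands at week 12. For untreated week 12 against week 8 in salivary glands 0 were called without a filter or with array weights, and 0 to 1 without 1 array; week 14 against week 8 gave 1 with only the groups compared. These comparisons of weeks 12 and 14 with week 8 were added after seeing the data. Between glands, week 16 gave 1 with array weights and 0 to 1 without 1 array, and week 8 gave 1 with only the groups compared. A threshold of 6 made 26 salivary arrays high for Amy1, and 1 of 10 left 1 high for Bpifb1. With Spearman's rho, 6 of the 10 genes most like Amy1 in lacrimal glands and 0 in salivary glands were the same, and with deviations from group means 6 in salivary glands. The replicate block changed no other call. The causes were not tested, except that without an LTBR-Ig array Bpifb1 no longer passed the filter on low values.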
